A study of Saccharomyces cerevisiae with 4 samples.

Results

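The genes described here are 25 autophagy genes and the vacuolar proteases Pep4, Prb1, Prc1, Cps1 and Ape3 with the inhibitor Pbi2, in all 31 of the 6301 open reading frames (ORFs) on spotted arrays of the budding yeast Saccharomyces cerevisiae. They were chosen by systematic name, not by their values, and the choice leaves out rows of the table in which the replicates do not match. Cells of strain S288c reached an OD600 of 0.4 in synthetic complete medium (SC), which is rich in nitrogen, shaken at 160 rpm and 30°C. For the nitrogen-poor condition such cells spent 12 h in minimal medium (MM), which held ammonium sulfate at 0.025% and lacked adenine and amino acids. Both cultures were of the same strain. The lack of amino acids and adenine and the hours after the shift came with the medium. The growth phase may have changed too, and none of these can be told apart from nitrogen supply. On each of 4 arrays cDNA of both cultures, primed with oligo-dT from 2 µg of mRNA, was hybridized together. MM was labelled in Cy5 on 2 arrays and SC on the other 2 by the array titles, with replicates 1 and 2 in each orientation. Equal masses of mRNA were labelled, so a ratio compares shares of the mRNA pool and not copies per cell.

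Autophagy carries cytoplasm and organelles to the vacuole in double-membrane vesicles, and in yeast it is the classic response to nitrogen starvation. The Atg1 kinase complex starts the process, a lipid kinase and Atg9 vesicles build the membrane, and 2 ubiquitin-like conjugation systems attach Atg8 to it. In the vacuole a lipase and a cascade of proteases break the content down, and amino acids return to the cytosol.

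Values are log2 ratios of MM over SC, so a value above 0 means more transcript in MM. The direction is likely rather than stated, since the dye that the titles give to a medium is not the dye in the channel annotations. It rests on the signs of PHO4, YSR3, YLR126C, AIM34 and TMA16, whose direction on oligo-dT arrays is given in the published text. The mean deposited value had that sign in 5 of 5, but 4 of the 5 lie in the rows where the replicates do not match, and the mean of TMA16 was only 0.034. The order of the 5 by value was also that of the published oligo-dT ratios, although none of these was significant there. The same text describes most genes of amino acid synthesis as lower in nitrogen-poor medium. Outside the mismatched rows HIS4 (YCL030C) was at -3.43 and -3.45 in the replicates and LYS20 (YDL182W) at -3.47 and -3.44. Other such genes were nearer to 0, as LEU2 (YCL018W) at -0.71 and -1.04 and LYS2 (YBR115C) at -0.25 and -0.012. All of these genes were picked after their values were seen. With the opposite direction every sign below would turn. Spots that were not well measured were blank, and made up 5.71% and 7.25% of ORFs on the arrays of replicate 1 and 30.3% and 34.6% on those of replicate 2. The replicate means correlated across genes at r = 0.766 over all 3765 ORFs with 4 values. The coefficients of 0.959 over 2994 ORFs outside the mismatched rows and 0.842 over 22 of the genes described here follow in part from the choice of rows, which used the match of the replicates, and are no measure of quality. These genes share arrays and are not independent of each other.

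Of the 31 genes, 22 (71.0%) had a value on all 4 arrays, against 59.8% of all ORFs. Another 5 had 3 values, and ATG7, ATG15, ATG20 and PRC1 had values in replicate 1 only. Each replicate was taken as the mean of its 2 dye orientations, and its mean was tested against 0 (limma, n = 2, Benjamini-Hochberg over 3765 ORFs, call at an adjusted p at or under 0.05).

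Transcripts of ATG8 and PRB1 rose most, by 3.48-fold and 3.32-fold, and those of ATG31, ATG13, ATG5, ATG32, ATG3 and ATG24 rose by 1.44-fold to 2.23-fold. Only APE3 among the 22 was called lower, 1.47-fold. Thus 8 of 22 genes (36.4%) were called higher, where 16.5% of all ORFs tested were, and 1 of 22 (4.55%) was called lower, where 17.0% of all were. Without moderation, which leaves 1 degree of freedom, none of the 9 was called (adjusted p 0.182 to 0.240), nor was any other ORF. Without the replicate 2 array with MM in Cy5 4 were called higher and 0 lower. With that omission the calls in both directions over all 3765 ORFs went from 1263 to 570. The median log2 ratio of the 22 was 0.24 (0.26 in replicate 1 and 0.37 in replicate 2), beside -0.019 for all 3765 ORFs, and 19 of the 22 lay above 0. The median absolute log2 ratio was 0.30, against 0.37 over all ORFs. A change of at least 2-fold was seen in ATG8, PRB1 and ATG31, or 13.6% of the 22 beside 14.1% of all. When the mismatched rows were left out of the fit, ATG22 and ATG27 were called as well, making 10 higher (30.8% of 2994 ORFs) and 1 lower (33.3%).

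**Figure D1:**
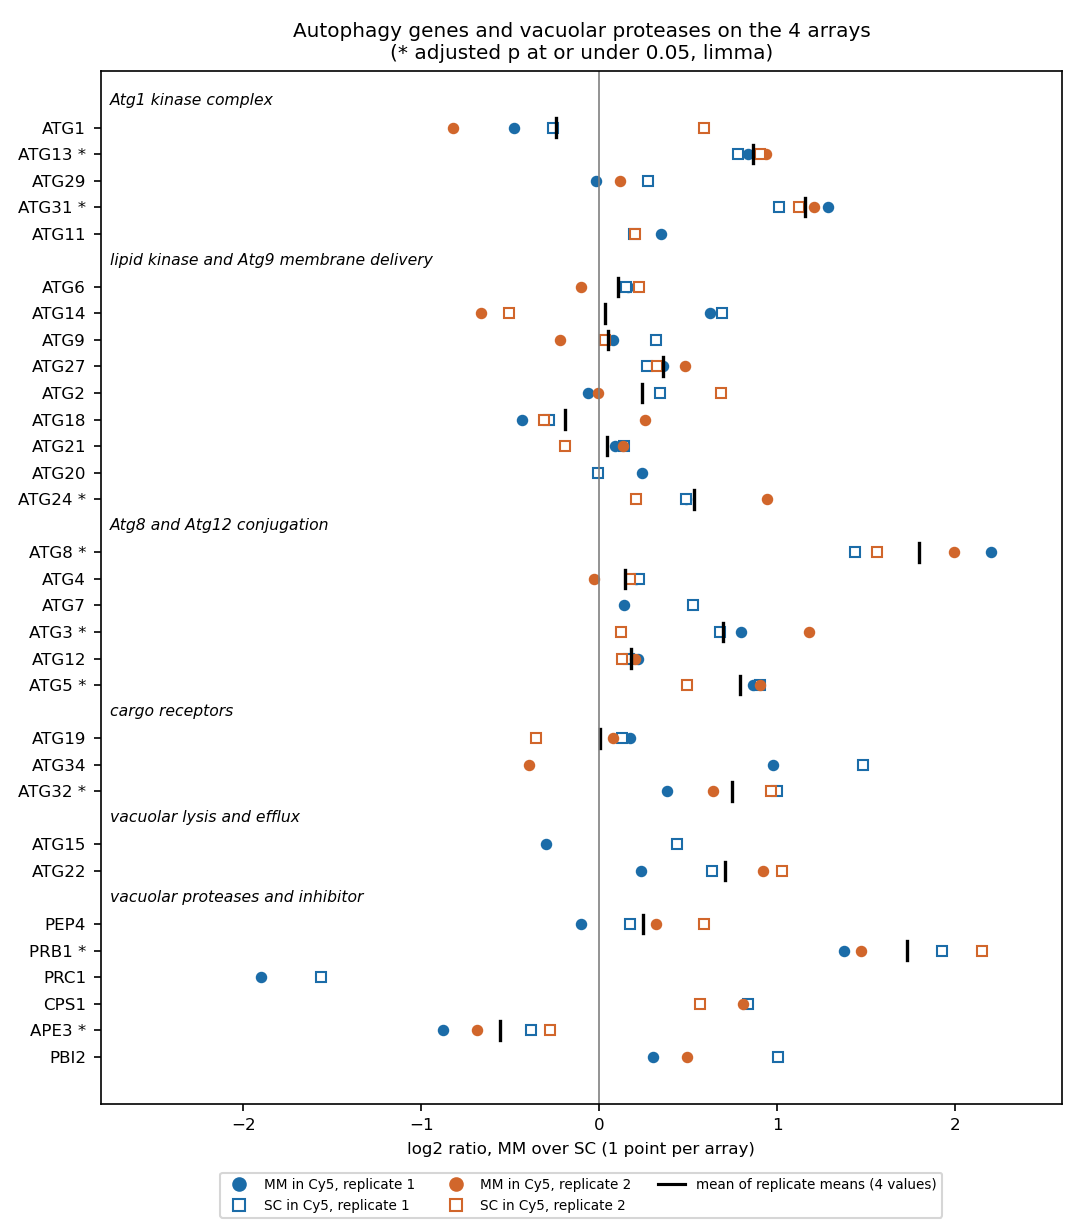
Log2 ratio of MM over SC (x axis) for each of the 31 genes (y axis, grouped by role), with 1 point per array, circles for MM in Cy5 and squares for SC in Cy5, replicate 1 in blue and replicate 2 in orange; the black bar is the mean of the replicate means where all 4 values exist, and an asterisk marks an adjusted p at or under 0.05. ATG8 and PRB1 lie at 1.38 or more on every array, and ATG14 is above 0 in replicate 1 and under 0 in replicate 2.

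In the kinase complex that starts autophagy, ATG31 and ATG13 were called higher, 2 of 3 genes with 4 values beside 16.5% of all ORFs, and differences between subunits were not tested. ATG31 (YDR022C), which encodes the subunit that joins Atg29 to the scaffold Atg17, was at 1.28 and 1.01 in replicate 1 (MM in Cy5, then SC in Cy5, as in all pairs below) and at 1.21 and 1.12 in replicate 2. All 4 arrays lay close together, at a mean of 1.16 ± 0.014 (SD, n = 2, limma adjusted p 0.0125). ATG13 (YPR185W), the regulatory subunit on which TOR signalling acts, was at 0.83 and 0.78 in replicate 1 and at 0.94 and 0.90 in replicate 2. Its mean of 0.86 ± 0.082 (adjusted p 0.0186) was again above 0 on every array. Both calls held when any single array was left out.

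The kinase itself, ATG1 (YGL180W), was not called. It was at -0.48 and -0.26 in replicate 1 and at -0.82 and 0.59 in replicate 2, so the arrays of replicate 2 differed in sign, and the mean of -0.24 ± 0.18 had an adjusted p of 0.199. ATG29 (YPL166W), the partner of Atg31, had 3 values of -0.016, 0.27 and 0.11. Its probe cannot be assigned to ATG29 alone, because the annotated gene overlaps SET6. ATG11 (YPR049C), a scaffold for selective autophagy, had values of 0.35 and 0.20 in replicate 1 and 0.20 in replicate 2. Neither of these passed in a fit of ORFs with at least 3 values (limma adjusted p 0.407 and 0.178).

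Of the genes of membrane supply 1 of 8 with 4 values was called higher, beside 16.5% of all ORFs. This was ATG24 (YJL036W, SNX4), a sorting nexin that also works in endosomal recycling, at 0.49 and 0.49 in replicate 1 and at 0.94 and 0.21 in replicate 2. Its mean was 0.53 ± 0.062 (adjusted p 0.0363), and the call was lost when any 1 of the 4 arrays was left out (adjusted p 0.0509 to 0.237). ATG27 (YJL178C), a membrane protein of Atg9 trafficking, was at 0.36 and 0.27 and at 0.48 and 0.33, above 0 on all arrays, with a mean of 0.36 ± 0.063 and an adjusted p of 0.0718. It passed without the mismatched rows (limma adjusted p 0.00623), but that fit tests every gene against a common variance. The smallest mean called there was 0.26 in size, so the call reflects the size of the mean and not the spread of ATG27.

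The scramblase gene ATG9 (YDL149W) was at 0.052 ± 0.20, the lipid transfer gene ATG2 (YNL242W) at 0.24 ± 0.14 and the Beclin homologue ATG6 (YPL120W, VPS30) at 0.11 ± 0.068. The phosphoinositide-binding genes ATG18 (YFR021W) and ATG21 (YPL100W) were at -0.19 ± 0.23 and 0.042 ± 0.10. None of these 5 passed the test (limma adjusted p 0.181 to 0.761), and each had arrays of both signs. ATG20 (YDL113C), the nexin partner of Atg24, was at 0.24 and -0.0045 in replicate 1 and blank in replicate 2.

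ATG14 (YBR128C), which directs the lipid kinase to autophagy, gave opposite values in the replicates. It was at 0.62 and 0.69 in replicate 1 and at -0.67 and -0.51 in replicate 2, so the dye orientations matched within each replicate and the replicates did not. Its SD of 0.88 was reached or passed by 8 of 2994 ORFs (0.267%, itself included) outside the mismatched rows. Over the 28 nearest measured ORFs in the table the replicates correlated at 0.975, with a median SD of 0.12. The mean of 0.034 (adjusted p 0.950) therefore describes neither replicate.

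**Figure D2:**
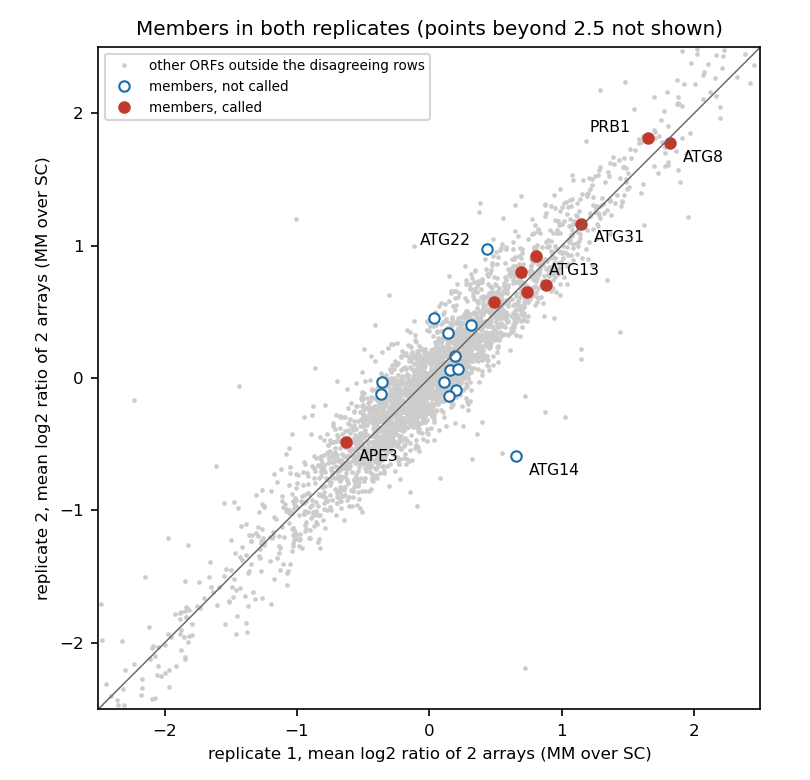
Mean log2 ratio in replicate 2 (y axis) against replicate 1 (x axis), each the mean of 2 arrays, for the 22 genes with 4 values (red where called, open blue where not) and the other ORFs outside the mismatched rows (grey), with the line of equal values. The called genes lie near the line, in part because the test and the choice of rows both use the match of the replicates. ATG14 lies at 0.66 in replicate 1 and -0.59 in replicate 2.

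In the conjugation systems ATG8, ATG3 and ATG5 were called higher, 3 of 5 genes with 4 values beside 16.5% of all ORFs, and differences between members were not tested. ATG8 (YBL078C), the ubiquitin-like protein that is coupled to lipid on the growing membrane and is consumed with it, was at 2.20 and 1.44 in replicate 1 and at 1.99 and 1.56 in replicate 2. The lowest array thus still showed an increase of more than 2-fold. Its mean was 1.80 ± 0.029 (adjusted p 0.00864, the lowest of any ORF, which others shared), and 1.61 to 1.99 when single arrays were left out.

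Of the enzymes that act on Atg8, ATG3 was called. ATG3 (YNR007C), the E2-like enzyme, was at 0.79 and 0.68 and at 1.18 and 0.12, with a mean of 0.69 ± 0.060 (adjusted p 0.0242). The call rested on the replicate 2 array with MM in Cy5, and when it was left out the mean was 0.43 and the adjusted p 0.246. ATG4 (YNL223W), the protease that matures Atg8 and releases it again, was at 0.14 ± 0.10 (adjusted p 0.334). ATG7 (YHR171W), the E1-like enzyme of both systems, had only replicate 1, at 0.14 and 0.52.

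The second system couples Atg12 to Atg5. ATG5 (YPL149W) was at 0.86 and 0.90 in replicate 1 and at 0.90 and 0.49 in replicate 2, above 0 on all arrays. The mean was 0.79 ± 0.13 (adjusted p 0.0233), and the same omission ended the call (0.69, adjusted p 0.0862). ATG12 (YBR217W), the ubiquitin-like member, was among the most even genes, between 0.13 and 0.22 on the 4 arrays, yet its mean of 0.18 ± 0.019 did not pass (adjusted p 0.221). The transcripts of the 2 ubiquitin-like proteins thus had mean log2 ratios of 1.80 and 0.18.

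Among cargo receptors 1 of 2 genes with 4 values was called higher, beside 16.5% of all ORFs. ATG32 (YIL146C), the mitochondrial receptor of mitophagy, was at 0.38 and 1.00 in replicate 1 and at 0.64 and 0.96 in replicate 2. The mean was 0.75 ± 0.080 (adjusted p 0.0227). It did not pass when the MM in Cy5 array of replicate 2 (adjusted p 0.0526) or the SC in Cy5 array of replicate 1 (0.0768) was omitted. ATG19 (YOL082W), the receptor of the cytoplasm-to-vacuole pathway, which delivers hydrolases in growing cells, was at 0.0060 ± 0.20 (adjusted p 0.972).

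Its paralog ATG34 (YOL083W), the neighbouring gene and a receptor for the same kind of cargo under starvation, was at 0.98 and 1.48 in replicate 1 and at -0.40 on the single measured array of replicate 2. The replicates thus disagreed in sign, as for ATG14, and the adjusted p with at least 3 values was 0.540. Related ORFs can hybridize to each other's spots, and this was not tested for these genes.

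Of the genes that act inside the vacuole, ATG22 (YCL038C), a permease that exports amino acids, was above 0 on every array. It was at 0.23 and 0.63 in replicate 1 and at 0.92 and 1.03 in replicate 2, which do not overlap. The mean of 0.70 ± 0.38 equalled a 1.63-fold change and missed the threshold (adjusted p 0.0682), but passed without the mismatched rows (3.38e-08). That fit tests every gene against a common variance, so its call reflects the size of the mean and not the spread of ATG22. ATG15 (YCR068W), the lipase that opens autophagic bodies, was at -0.30 and 0.44 in replicate 1, of opposite sign in the dye orientations, and blank in replicate 2.

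The vacuolar proteases went in opposite directions. PRB1 (YEL060C), the serine protease B, was at 1.38 and 1.92 in replicate 1 and at 1.47 and 2.15 in replicate 2. Every array showed more than a 2-fold increase, with a mean of 1.73 ± 0.11 (adjusted p 0.00947), and no single array changed the call. APE3 (YBR286W), aminopeptidase Y, was at -0.88 and -0.38 and at -0.68 and -0.28, under 0 on every array. Its mean of -0.56 ± 0.10 had an adjusted p of 0.0371, and the call held only in 1 of 4 omissions of an array, that of SC in Cy5 replicate 2 (adjusted p 0.0410, against 0.0554 to 0.167 in the others).

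PEP4 (YPL154C), proteinase A, which activates the other proteases, was at -0.10 and 0.18 in replicate 1 and at 0.32 and 0.59 in replicate 2, so the replicates did not overlap. The mean was 0.25 ± 0.29 (adjusted p 0.282). PRC1 (YMR297W), carboxypeptidase Y, was measured in replicate 1 only, at -1.90 and -1.57, the lowest values of any of the 31 genes. With no second replicate this difference has no test.

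CPS1 (YJL172W), carboxypeptidase S, had no value with MM in Cy5 of replicate 1. It was at 0.84 in replicate 1 and at 0.81 and 0.57 in replicate 2. PBI2 (YNL015W), the small cytosolic inhibitor of protease B, was at 0.30 and 1.00 in replicate 1 and at 0.50 in replicate 2. In the fit of 4570 ORFs with at least 3 values, both were called higher, CPS1 at 0.76 ± 0.11 (limma adjusted p 0.0309) and PBI2 at 0.57 ± 0.11 (0.0471). In that fit 10 of 27 genes were called higher (13.6% of all) and 1 lower (13.1% of all). Since 1 replicate of CPS1 and of PBI2 had 1 dye orientation, a dye effect does not cancel there.

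In the order of mean log2 ratios, 16 of 21 neighbouring pairs differed by no more than the larger SD of the pair. ATG8 and PRB1 differed by 0.067 and were not told apart, whereas ATG31 lay 0.57 under PRB1, and ATG13 lay 0.29 under ATG31. From ATG13 to ATG3 no neighbour was told apart, at 0.86 to 0.69. APE3 had the lowest mean of the 22 genes with 4 values, 0.31 under ATG1. The arrays of these genes overlapped, at -0.88 to -0.28 for APE3 and -0.82 to 0.59 for ATG1. Differences between neighbours in this order were not tested.

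The dye orientation asks whether a gene moved with the label and not with the medium. No gene of the 22 passed in the dye test (limma, adjusted p at or under 0.05), with 3 of 22 (13.6%) at an unadjusted p at or under 0.05, where 8.21% of all ORFs were. The 3 were ATG8, PRB1 and ATG2. The leading genes changed places with the orientation: ATG8 was ahead with MM in Cy5 (2.20 and 1.99, against 1.38 and 1.47 for PRB1), and PRB1 was ahead with SC in Cy5 (1.92 and 2.15, against 1.44 and 1.56). The order of these genes is therefore not settled, while the increase of each was present in both orientations. The difference between orientations (MM in Cy5 minus SC in Cy5) ranged from -0.81 in ATG1 to 0.60 in ATG8, and was above 0 in 11 genes and under 0 in 11.

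**Figure D3:**
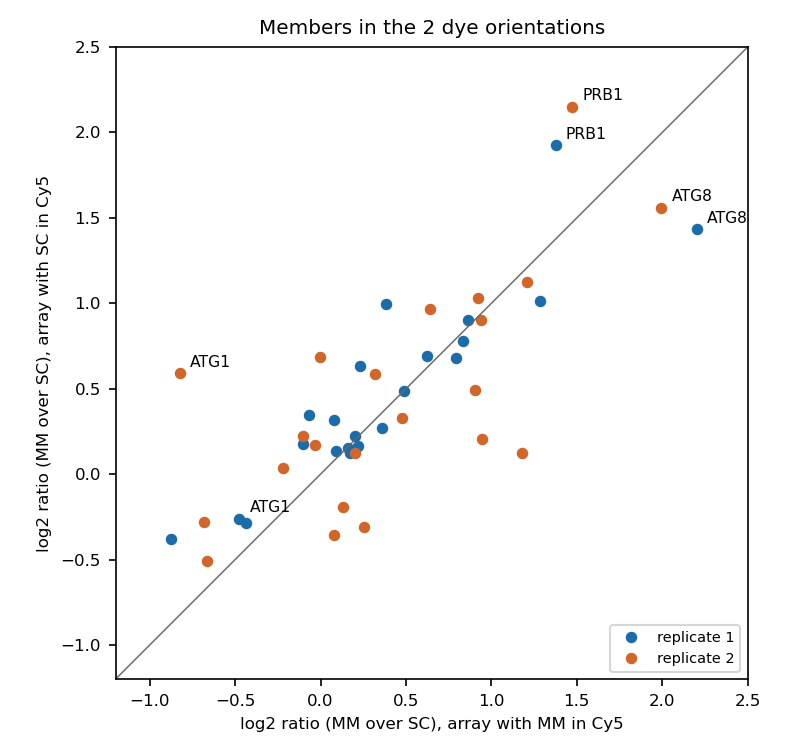
Log2 ratio of MM over SC on the array with SC in Cy5 (y axis) against the array with MM in Cy5 (x axis) for the 22 genes with 4 values, replicate 1 in blue and replicate 2 in orange, with the line of equal values. In both replicates ATG8 lies under the line and PRB1 above it, and ATG1 in replicate 2 lies at -0.82 and 0.59.

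Other genes of autophagy and the vacuole were read beside these, in lists chosen by function. Of 11 further autophagy genes 9 lay in the mismatched rows, among them ATG10 (0.63 ± 0.25, limma adjusted p 0.0517) and ATG17, measured in replicate 1 only. The other 2 went in opposite directions. ATG36 (YJL185C), the receptor for peroxisomes, was at 0.93 ± 0.22 (adjusted p 0.0248). ATG41 (YPL250C, ICY2), which interacts with Atg9, was at -3.27 and -3.03 in replicate 1 and at -3.15 and -3.35 in replicate 2. Its mean of -3.20 ± 0.065 (adjusted p 0.00864) is a 9.19-fold decrease, larger than any change among the 31 genes.

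The list of known regulators of ATG transcription held 2 called genes of 6, both lower, beside 17.0% of all ORFs called lower and 16.5% higher, shares that apply to the other lists too. PHO23 (YNL097C), a subunit of the Rpd3 histone deacetylase complex known to repress ATG9, was at -1.95 and -1.98 and at -2.37 and -2.30, with a mean of -2.15 ± 0.26 (adjusted p 0.00995). RPH1 (YER169W), a histone demethylase that represses ATG7 and other ATG genes, was at -0.56 ± 0.019 (adjusted p 0.0320), but at -0.88 and -0.89 with MM in Cy5 and at -0.26 and -0.20 with SC in Cy5. It was called in 2 of 4 omissions of an array. UME6 (YDR207C), SIN3 (YOL004W) and RPD3 (YNL330C), which repress ATG8, were at 0.33 ± 0.071, -0.14 ± 0.0046 and 0.0056 ± 0.0097 and did not pass (adjusted p 0.0850 to 0.966). These SDs are between dye-averaged replicates. Single arrays of each had both signs, from -0.32 to 0.050 for SIN3 and from -0.13 to 0.13 for RPD3.

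The vacuolar machinery around these genes had medians nearer to 0. The list for the proton pump of the vacuole (V-ATPase) had a median of -0.16 over 11 genes with 4 values. VMA21, the gene of an assembly factor and not of a subunit, was called higher (0.51 ± 0.0095, arrays from 0.35 to 0.68, limma adjusted p 0.0365). The subunit gene VMA13 was called lower (-0.83 ± 0.051, adjusted p 0.0188). These calls held in 1 and 3 of 4 omissions of an array. The lipid kinase and vacuole fusion list had a median of -0.0064 over 10 genes and 1 call, that of the tethering subunit VPS11 (0.63 ± 0.12, adjusted p 0.0323, held in 2 of 4 omissions). Other vacuolar hydrolases and cargo had a median of 0.13 over 8 genes, with ATG42 (YBR139W), a homologue of carboxypeptidase Y, at 0.58 ± 0.015 (adjusted p 0.0293, held in 1 of 4 omissions). That SD is between dye-averaged replicates. Single arrays of ATG42 were at 0.39 and 0.27 with MM in Cy5 and at 0.80 and 0.87 with SC in Cy5. The protease inhibitor gene TFS1 was called at 0.91 ± 0.41 (adjusted p 0.0480, held in 2 of 4 omissions), but it lies in the mismatched rows.

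Vacuolar amino acid transporters had a median of -0.053 over 10 genes and calls in both directions, 3 higher and 2 lower, beside 16.5% and 17.0% of all ORFs. AVT2 (YEL064C) was at 0.76 ± 0.12 and the basic amino acid transporter YPQ2 (YDR352W) at 0.66 ± 0.081 (limma adjusted p 0.0238 and 0.0263, each held in 3 of 4 omissions). The third, AVT7 (YIL088C), was at 0.51 ± 0.058 (adjusted p 0.0381, held in 1 of 4). The YPQ2 relatives RTC2 (YBR147W) and YPQ1 (YOL092W) fell, to -0.93 ± 0.18 and -0.82 ± 0.092 (adjusted p 0.0218 and 0.0199, held in all 4). Within this family of related transporters the direction thus differed between members.

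**Figure D4:**
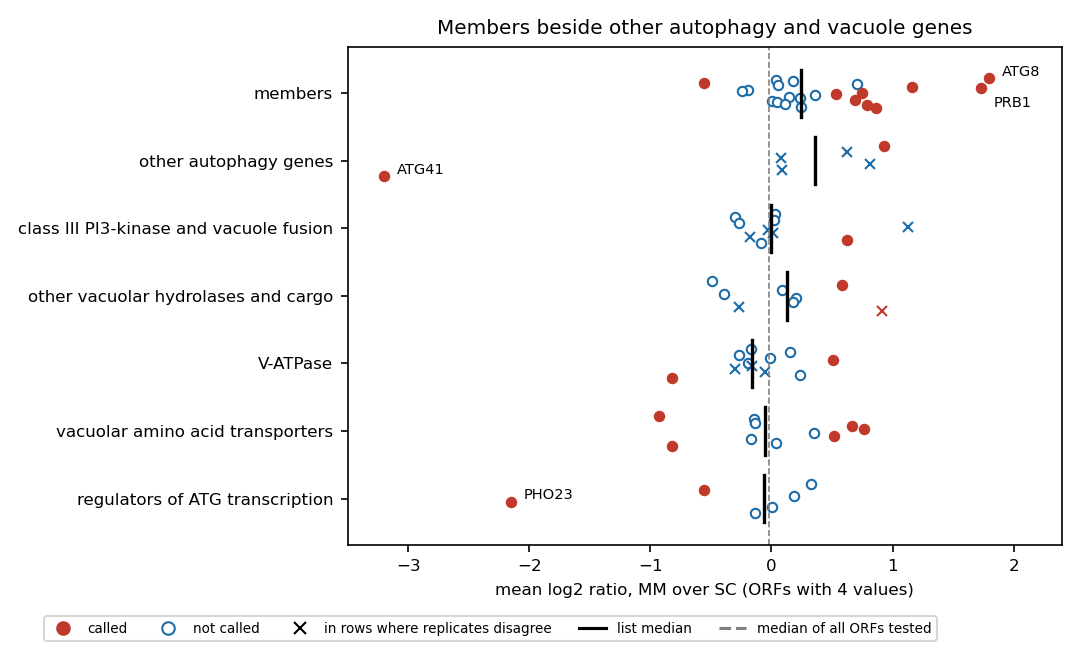
Mean log2 ratio of MM over SC (x axis) for ORFs with 4 values in each list (y axis), red where called and blue where not, crosses for ORFs in rows where the replicates do not match, black bars for list medians and a dashed line for the median of all ORFs tested. The 22 genes described here have a median of 0.24, and ATG41 at -3.20 and PHO23 at -2.15 lie farthest from 0.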

How the data were processed

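The authors scanned the spotted ORF arrays (GenePix), subtracted background and applied a mean-by-mean normalization to the spots that were well measured, that is, above background by a set multiple of its SD. The deposited values are log2 ratios, 1 per ORF and array, with other spots blank. The versions of the software that made them are not given in the sources used here. Arrays of opposite dye orientation correlated at r = 0.928 and 0.859 (replicates 1 and 2), so all ratios run in 1 direction and none was turned.

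Arrays of opposite dye with the same replicate number were averaged, being taken as a dye swap of 1 replicate. Then lmFit and eBayes of limma 3.58.1 (R 4.3.3) were run over all 3765 ORFs with 4 values. Between replicate numbers r was 0.750 (MM in Cy5) and 0.731 (SC in Cy5) over these ORFs, part of which lie in the mismatched rows. The pairing was taken from the replicate numbers, and these coefficients cannot show that paired arrays share RNA. The Bayesian program named in the study's methods was not used. The mismatched rows are 1549 (YKL054C to YMR185W and YOR046C to YPL023C). Over those of them with 4 values the replicates correlated at 0.042. The rows with 4 values stayed in the fit, and an alternative left them out. Symbols come from the RefSeq table of assembly R64, which matched 31 of 31 genes and 5801 of 6301 ORFs. Coordinates are not given, the build of the array design not being stated.

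The genes, lists and alternatives were chosen with earlier results of these data known. All 31 genes are named, and from each other list at most the 2 called genes with the largest change in each direction; ATG10, ATG17, UME6, SIN3, RPD3 and AVT7 were named after their values were seen. No depth exists for arrays, so the 4 arrays limit the precision. The design text calls the replicates biological and the methods give them separate reverse transcriptions. Separate cultures are not named, so the spread between these 2 replicates may be technical. Each p-value of the main fit rests on that spread, with 1 degree of freedom, and on a variance shared over all 3765 ORFs, with 2.10. The mismatched rows are part of that shared variance. Standard errors thus differed little where SDs did: 0.090 for ATG31 (SD 0.014) and 0.093 for ATG24 (SD 0.062). The code of the main fit was tested on simulated replicate means, drawn independently for each gene and without dye effects. That does not check the calls made here. A planned search of promoters for motifs was not run, and no sequences are shown.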

Additional observations from a re-analysis of the deposited data

Results flagged for a closer look

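In 3 genes every array of 1 dye orientation lay on the opposite side of 0 from every array of the other, although all arrays compare the same media. ATG2 (YNL242W) was under 0 on both arrays with MM in Cy5 and above 0 on both with SC in Cy5, a difference of -0.55 (MM in Cy5 minus SC in Cy5). Its dye term had an unadjusted p of 0.0415 and an adjusted p of 0.568 (limma). ATG15 (YCR068W) differed by -0.74 and ATG20 (YDL113C) by 0.24, each over the 2 arrays of replicate 1, and these differences were not tested.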

How the results depend on the processing

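The fit of ORFs with at least 3 values was chosen after the data were seen, and the other alternatives were planned. Over all ORFs 1263 were called in both directions, against 1920 without the mismatched rows and 1979 with the replicate number as a random block (correlation -0.24). A negative correlation narrows the standard error of a mean, so the block fit was less strict than taking the 4 arrays as independent (1744 called). With no moderation 0 were called (877 at an unadjusted p at or under 0.05). When single arrays were left out 570 to 1026 were called, lowest without MM in Cy5 of replicate 2. Among the autophagy and protease genes 8 were higher and 1 lower, against 10 and 1 with the replicate block, which added ATG22 and ATG27, 0 and 0 with no moderation (7 at an unadjusted p), and 4 to 8 and 0 to 1 without single arrays. Their median log2 ratio was 0.24, and 0.18 to 0.37 when single arrays or a replicate were left out. In the dye test 0 were called, also with the replicate block, and 3 at an unadjusted p.

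In the other lists no moderation left 0 calls. Without the mismatched rows 2 genes were lower in each of the vacuole fusion (of 6), hydrolase (of 6) and V-ATPase (of 8) lists. In that fit 1 of 6 was higher among hydrolases and 1 of 6 among regulators. Of all ORFs in the same fit 33.3% were called lower and 30.8% higher. Other autophagy genes had 2 higher calls after quantile normalization and 3 with the replicate block, with 4 independent arrays or at an unadjusted p. Hydrolases had 1 higher call after median centring, quantile normalization or robust moderation, and 1 lower call with the replicate block or 4 independent arrays and 2 at an unadjusted p. Regulators had 1 higher call with the block or at an unadjusted p. Over omissions of single arrays, higher calls ranged from 1 to 2 for other autophagy genes, 0 to 1 for vacuole fusion and V-ATPase, 0 to 2 for hydrolases and 0 to 3 for transporters, and lower calls from 0 to 1 for hydrolases and V-ATPase and 1 to 2 for regulators.

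None of the 9 called genes changed sign under any alternative run. Of those not called, 5 did so only when an array or replicate was left out, with ranges of -0.60 to 0.11 for ATG1, -0.59 to 0.66 for ATG14, -0.093 to 0.20 for ATG9, -0.040 to 0.12 for ATG21 and -0.14 to 0.15 for ATG19. An omission leaves 1 replicate with a single orientation, so dye effects remain in its mean. The causes of these changes were not tested.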
